A study of Saccharomyces cerevisiae with 6 samples.

Results

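Budding yeast (Saccharomyces cerevisiae) turns pyruvate into ethanol or acetyl-CoA through a short set of isozymes, and RNA levels of 10 of their genes were compared between cells with the H2B K123R substitution and wild-type cells. The genes were PDC1, PDC5, PDC6, ADH1, ADH2, ADH3, ALD4, ALD5, ALD6 and ACS2, chosen by name from the array's gene annotation. They were read by 11 probe sets, among 9275 probe sets and 5656 named genes in all, and ALD6 was the gene with 2 probe sets. The H2B K123R cells (strain Y118) carry arginine in place of the H2B lysine at which a single ubiquitin is attached, and the cells it was set against (strain Y117) carry wild-type H2B. Early stationary phase cultures of both were diluted to an optical density of 0.3 in rich YPD medium. They were shaken for 7 hours at 30 degrees until the density reached 2, with 3 cultures per strain. Each culture gave 1 Affymetrix S98 array, which reads labelled total RNA in a single channel with oligonucleotide probe sets. Each genotype was a strain of its own name, so that any other difference between Y118 and Y117 cannot be told apart from the substitution.

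In fermenting yeast, pyruvate decarboxylase removes carbon dioxide from pyruvate to leave acetaldehyde. Alcohol dehydrogenase then reduces acetaldehyde to ethanol, which regenerates NAD+ for glycolysis. Acetaldehyde can instead be oxidised to acetate by aldehyde dehydrogenases and joined to coenzyme A by acetyl-CoA synthetase, a route that feeds lipid synthesis, protein acetylation and, once glucose is gone, respiration. The isozymes differ in compartment and regulation, so that the same reaction can serve fermentation or ethanol use in the cytosol, or redox exchange in the mitochondrion.

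Array medians of the signal lay between 130.5 and 140.2. On the log2(signal + 16) scale, the arrays within wild type correlated at 0.992 to 0.995, and H2B K123R replicates 2 and 3 at 0.991. H2B K123R replicate 1 differed from all other arrays and correlated at 0.958 and 0.969 with its own group. Its 99th percentile of signal was 8651, the lowest of the 6 arrays, and the 93 brightest probe sets differed from their wild-type mean by a median of -0.43 there, against -0.12 and -0.10 on the other mutant arrays. The differences of the 10 genes are therefore also given without that array. The substitution itself cannot be read from these arrays. HTB1, an H2B gene, gave signals of 4560 ± 458 in H2B K123R and 5836 ± 358 in wild type (SD, n = 3 each). HTB2, the other H2B gene, gave means of 4.14 in H2B K123R and 6.78 in wild type, within the 0.922 to 18.3 spanned by 4 mouse control probe sets, so that it was at background in both strains.

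None of the 10 genes passed the test of H2B K123R against wild type, which was a two-sided limma fit over all probe sets with Benjamini-Hochberg adjustment and a threshold of 0.05. Among all genes counted with 1 probe set each, 8.98% passed. An unadjusted p under 0.05 was found for 3 of the 10, PDC5, PDC6 and ADH3, against 30.7% of all genes. Each array reads a whole culture, so that more cells expressing a gene and more RNA per cell cannot be told apart. PDC6 came closest, with an adjusted p just above the threshold. For 6 of the 10 genes the mutant and wild-type arrays were fully separated, against 39.3% of all genes. Higher without overlap in H2B K123R were PDC5, PDC6 and ADH3 (25.5% of all genes), and lower without overlap were PDC1, ADH1 and ACS2 (13.8% of all genes). Differences are given as log2 H2B K123R minus wild type of signal + 16, a pseudocount that makes the changes of dim genes look smaller. Ratios and fold changes are taken from these differences, so for dim genes they fall short of the ratio of the printed signals. The p-values measure the spread between 3 cultures that the labels do not trace to separate starters.

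**Figure D1:**
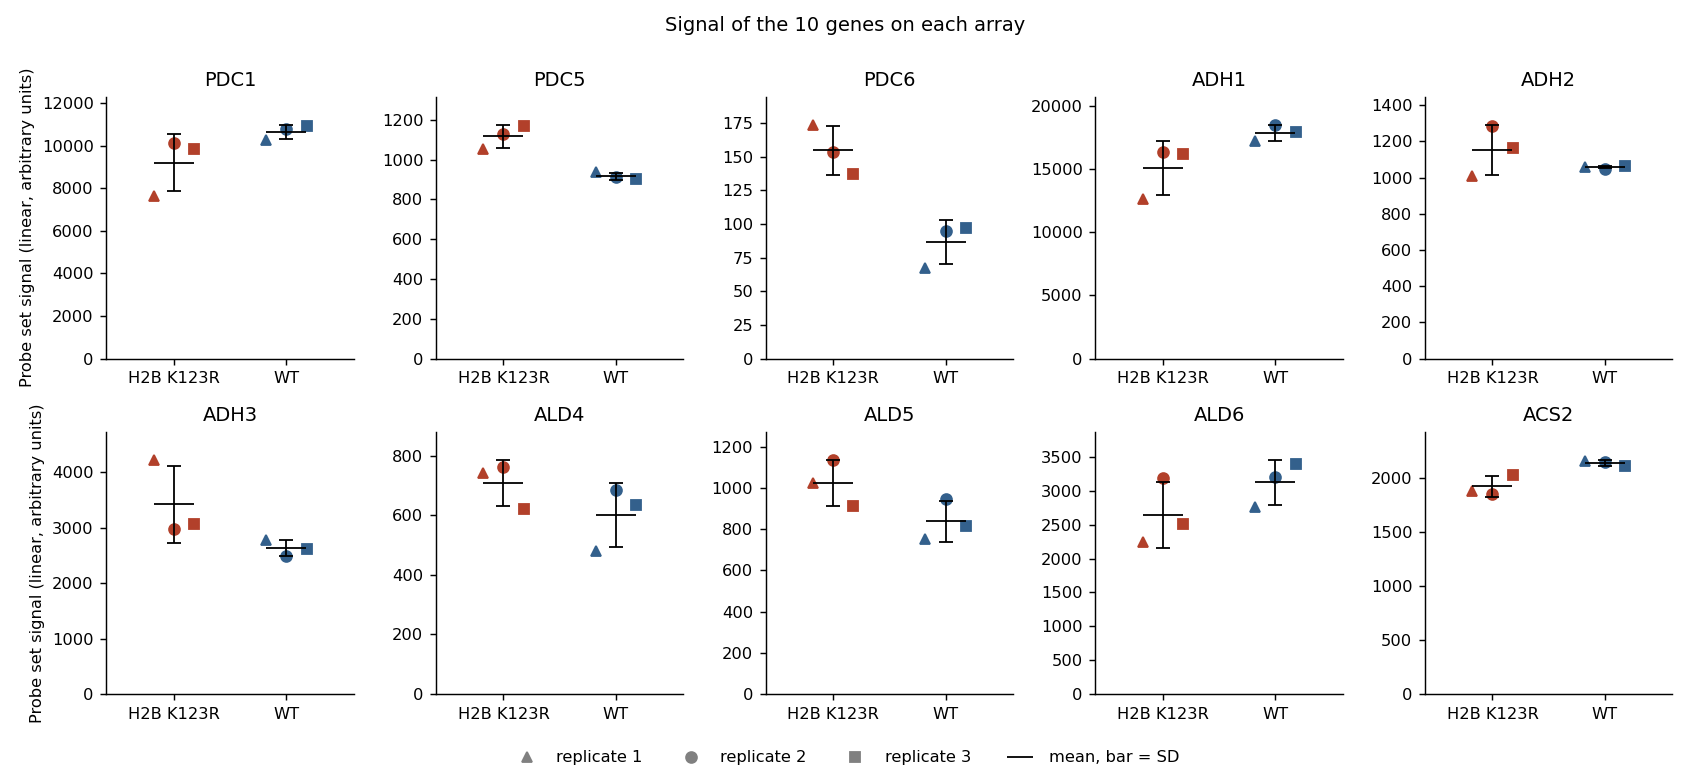
Probe set signal (linear, arbitrary units) of the 10 genes on each array, H2B K123R left and wild type right. Symbols are the 3 replicates, horizontal bars the means and error bars the SD. The PDC6 arrays lie at 137 to 174 in H2B K123R against 67.5 to 97.1 in wild type, and H2B K123R replicate 1 is the lowest PDC1 and ADH1 point and the highest ADH3 point.

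Of the pyruvate decarboxylase genes, PDC1 encodes the main isozyme of glucose-grown cells. Its signals were 7658, 10129 and 9853 in H2B K123R replicates 1 to 3, against 10275, 10774 and 10925 in wild type. All mutant arrays were below the wild-type arrays, but most of the distance came from replicate 1, and replicate 2 lay close to the lowest wild-type array. The difference was -0.22 (95% interval -0.50 to 0.06; limma adjusted p = 0.296), and -0.09 without H2B K123R replicate 1.

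PDC5 encodes the other main cytosolic decarboxylase, which takes over when PDC1 is lost and is also induced when thiamine is scarce. Its signals were 1054, 1129 and 1168 in H2B K123R, against 937, 910.0 and 902 in wild type. The wild-type arrays were tightly grouped and every mutant array lay above them, replicate 1 by the smallest margin. The difference was 0.28 (95% interval 0.11 to 0.46), a ratio of 1.21, and did not pass (limma adjusted p = 0.0730). Without H2B K123R replicate 1 it was 0.32 and passed (limma adjusted p = 0.0306), in a fit where 14.4% of all genes did.

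PDC6 encodes a further isozyme, little used on glucose and known for its induction when sulfur is limiting. It had the largest difference of the 10. Signals were 174, 154 and 137 in H2B K123R, against 67.5, 95.1 and 97.1 in wild type, with means of 155 ± 18.3 and 86.5 ± 16.5 (SD, n = 3 each). The gap between the groups exceeded the spread within either. The difference was 0.74 (standard error 0.17, 95% interval 0.34 to 1.15), a ratio of 1.68, with a limma adjusted p of 0.05001, just above the threshold. Without H2B K123R replicate 1 it was 0.67 (adjusted p = 0.0549). It passed with a pseudocount of 1 or 64, after quantile normalization or cyclic loess, without a variance trend and with array weights (adjusted p from 0.0134 to 0.0488; with array weights 36.7% of all genes passed), and did not pass when any 1 array was left out (0.0549 to 0.150). PDC1 and PDC5 are close in sequence, and whether their probe sets read each other's RNA was not tested.

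ADH1 encodes the cytosolic dehydrogenase that makes most ethanol during fermentation. Its signals were 12619.5, 16376 and 16217 in H2B K123R, against 17208.5, 18474 and 17924 in wild type. The pattern was that of PDC1: replicate 1 was far below the others, and the 2 remaining mutant arrays were slightly below wild type. The difference was -0.26 (95% interval -0.53 to 0.02; limma adjusted p = 0.225), -0.13 without H2B K123R replicate 1 and -0.03 after quantile normalization. For PDC1 the value after quantile normalization was -0.05. The bright fermentation genes PDC1 and ADH1 thus kept a negative sign, at a size that depended on the treatment of 1 array and of bright signals. On H2B K123R replicates 1 to 3, PDC1 differed from its wild-type mean by -0.48, -0.07 and -0.11, and ADH1 by -0.50, -0.13 and -0.14. The medians of the 93 brightest probe sets there were similar, at -0.43, -0.12 and -0.10. Whether PDC1 and ADH1 differed from other bright genes was not tested.

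ADH2 encodes the glucose-repressed cytosolic dehydrogenase that oxidises ethanol when glucose is exhausted. Its signals were 1006, 1286 and 1164 in H2B K123R, against 1059, 1050.1 and 1063 in wild type. Wild type was uniform, with an SD of 6.75, and the mutant arrays lay on both sides of it. The difference was 0.11 (95% interval -0.13 to 0.36; limma adjusted p = 0.524), and 0.21 without H2B K123R replicate 1 (adjusted p = 0.116). ADH1 and ADH2 are close in sequence, and whether the ADH2 probe set also read the abundant ADH1 RNA was not tested.

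ADH3 encodes the mitochondrial alcohol dehydrogenase, which exchanges reducing equivalents between mitochondrion and cytosol through ethanol and acetaldehyde. Its signals were 4222, 2981 and 3071 in H2B K123R, against 2781, 2491 and 2620.0 in wild type. All mutant arrays were above wild type, with replicate 1 well above the other 2. The difference was 0.36 (95% interval 0.02 to 0.70; limma adjusted p = 0.178), and 0.20 without H2B K123R replicate 1 (adjusted p = 0.116).

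The mitochondrial aldehyde dehydrogenase genes, ALD4 for the main and ALD5 for the minor isozyme, had positive differences with overlapping groups. ALD4 signals were 741, 763 and 619.6 in H2B K123R, against 479.8, 686 and 635 in wild type. ALD5 signals were 1026, 1135 and 913 in H2B K123R, against 752, 949 and 813 in wild type. In both genes wild-type replicate 1 was the lowest array and wild-type replicate 2 reached above the lowest mutant array. The differences were 0.24 for ALD4 (95% interval -0.13 to 0.61; limma adjusted p = 0.380) and 0.29 for ALD5 (adjusted p = 0.203). Without H2B K123R replicate 1 they were 0.21 for ALD4 and 0.28 for ALD5. The ALD4 difference was 0.09 without wild-type replicate 1 and 0.34 without wild-type replicate 2.

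ALD6 encodes the cytosolic, NADP-linked enzyme that supplies most acetate on glucose. The brighter of its 2 probe sets gave 2238, 3184 and 2516 in H2B K123R, against 2758, 3209.6 and 3403 in wild type. Replicates 1 and 3 of the mutant were below all wild-type arrays and replicate 2 was within their range. The difference was -0.25 (95% interval -0.60 to 0.10; limma adjusted p = 0.346), and -0.14 without H2B K123R replicate 1. The other ALD6 probe set gave 0.368 to 2.93 in H2B K123R and 0.597 to 8.03 in wild type, no brighter than the mouse controls, so that it did not measure the gene.

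ACS2 encodes the acetyl-CoA synthetase that is essential on glucose and supplies acetyl-CoA to the cytosol and nucleus, histone acetylation included. Its signals were 1883, 1855 and 2030.3 in H2B K123R, against 2163, 2147 and 2113 in wild type. The groups did not overlap and all arrays lay in a narrow band. The difference was -0.15 (95% interval -0.32 to 0.01; limma adjusted p = 0.217) and -0.14 without H2B K123R replicate 1.

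**Figure D2:**
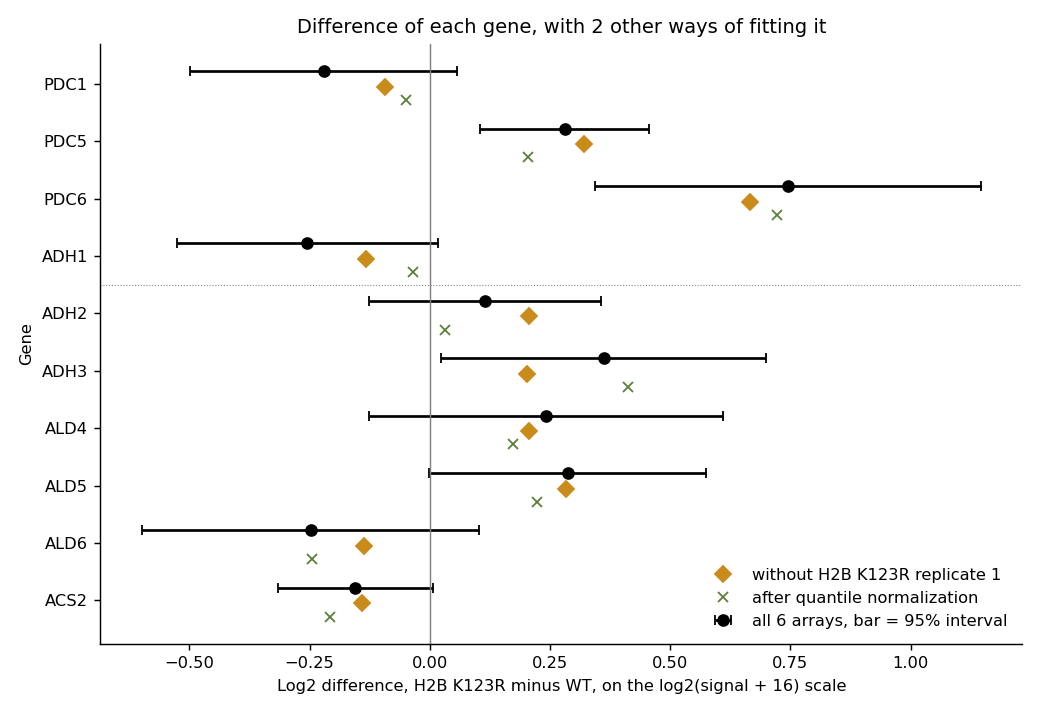
Log2 difference, H2B K123R minus wild type, for the 10 genes, with the fermentation isozymes above the dotted line. Black points use all 6 arrays with 95% intervals, diamonds leave out H2B K123R replicate 1 and crosses follow quantile normalization. PDC6 stays at 0.67 to 0.74 in the 3 fits shown, while PDC1 and ADH1 shrink to -0.05 and -0.03 after quantile normalization.

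Set side by side, the fermentation isozymes (PDC1, PDC5, PDC6 and ADH1) did not share a direction. Their median difference was 0.03, over values from -0.26 to 0.74, with PDC5 and PDC6 positive and PDC1 and ADH1 negative. The 6 acetate-making and ethanol-using genes had a median of 0.18, over values from -0.25 to 0.36, with 4 positive and 2 negative. Over all genes the median was 0.08. Without H2B K123R replicate 1 the medians were 0.11 for the fermentation isozymes and 0.20 for the others. They were 0.09 and 0.10 after quantile normalization, 0.08 and 0.08 after cyclic loess, and 0.11 and 0.10 with array weights, so that the distance between the medians was not kept across settings. The difference between the 2 groups of genes was not tested. Of all 10 genes 6 had a positive difference, as did 3416 of the 5656 genes on the array. The sign of each gene was the same in every one of 14 alternative fits in which it was tested. It could not change with the signal filter, the replicate block or no variance trend, which leave the difference as it was.

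Shifts between isozymes were also read within each array, as log2(signal + 16) of one gene minus that of another. A scale common to all signals of an array largely cancels in this quantity for bright genes, and less so for dim PDC6 because of the added 16. A shift that depends on brightness does not cancel between genes of unlike brightness such as ADH2 and ADH1. The 93 brightest probe sets differed from their wild-type mean by medians of -0.43, -0.12 and -0.10 on H2B K123R replicates 1 to 3. The 10 pairs were chosen after the values of the genes were seen, and only the change of such a quantity between strains has meaning, since probe sets differ in brightness. PDC6 minus PDC1 was -5.34, -5.90 and -6.01 in H2B K123R, against -6.95, -6.60 and -6.60 in wild type. This is a shift of 0.96 towards PDC6 in H2B K123R, and of 0.76 without replicate 1 and 0.77 after quantile normalization. PDC5 minus PDC1 shifted by 0.50, and by 0.41 and 0.25 in those settings.

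The alcohol dehydrogenase pair shifted less stably. ADH2 minus ADH1 was -3.63, -3.65 and -3.78 in H2B K123R, against -4.00, -4.12 and -4.06 in wild type. The shift of 0.37 stayed at 0.34 without replicate 1 but was 0.07 after quantile normalization, which fits all arrays to 1 distribution of signals. ADH3 minus ADH1 shifted by 0.62, by 0.33 without replicate 1 and by 0.45 after quantile normalization.

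Between mitochondrial and cytosolic aldehyde dehydrogenases, ALD5 minus ALD6 was -1.11, -1.48 and -1.45 in H2B K123R, against -1.85, -1.74 and -2.04 in wild type. The groups were apart, and the shift of 0.53 was 0.42 without replicate 1 and 0.47 after quantile normalization. ALD4 minus ALD6 shifted by 0.49, by 0.34 and by 0.42 in the same settings. ALD5 minus ALD4, the mitochondrial pair, overlapped between strains and averaged 0.52 ± 0.06 in H2B K123R and 0.48 ± 0.14 in wild type (SD, n = 3 each). ACS2 minus ALD6, consecutive steps in the cytosol, overlapped as well, with means of -0.44 ± 0.29 in H2B K123R and -0.54 ± 0.17 in wild type.

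**Figure D3:**
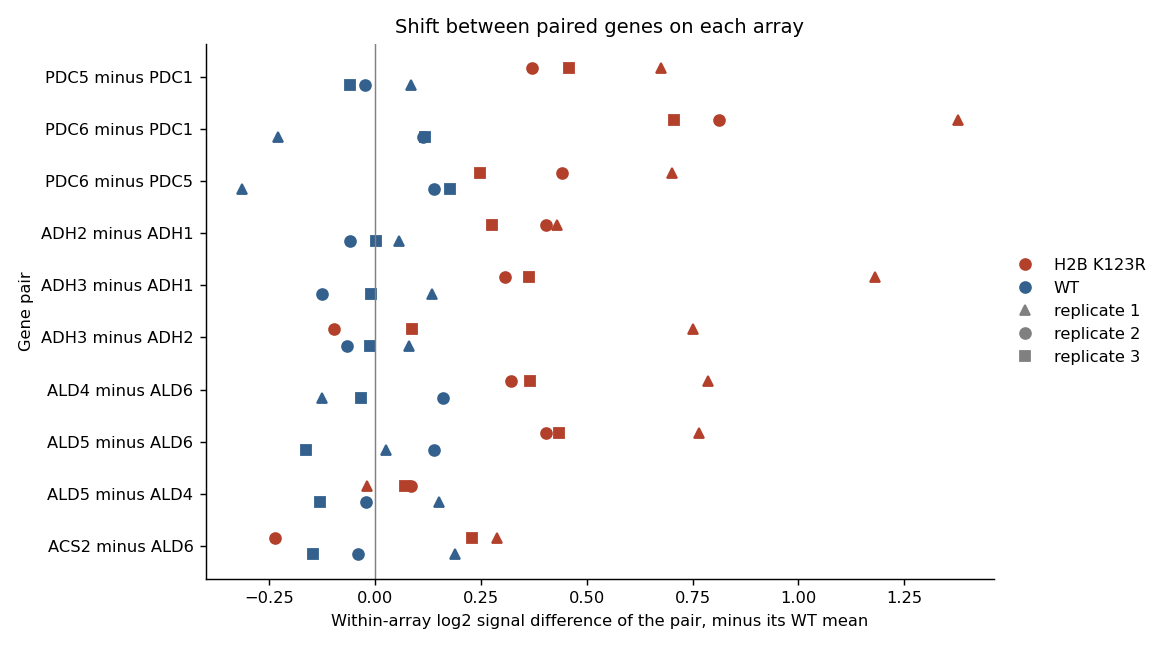
Within-array log2 signal difference of 10 gene pairs, minus its wild-type mean, for each array (H2B K123R in red above, wild type in blue below, symbols for replicates). The mutant arrays lie to the right of the wild-type arrays for PDC6 minus PDC1, ADH2 minus ADH1 and ALD5 minus ALD6, and overlap them for ALD5 minus ALD4 and ACS2 minus ALD6. Replicate 1 of H2B K123R is the farthest mutant array in most pairs. The pairs were chosen after the values of the genes were seen, and other pairs of genes were not counted.

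The neighbouring steps of the pathway were read from 51 listed genes, of which 47 had a probe set of their own. Of these, 3 rose, 1 fell and 43 did not pass, with a median difference of 0.08. Over all genes 6.06% rose and 2.92% fell. Among other alcohol dehydrogenases, ADH4, a dehydrogenase unrelated in sequence to the ADH1 family, was the 1 of 5 that passed. Its signals were 914, 859 and 949 in H2B K123R, against 1153, 1167 and 1154 in wild type. Every mutant array was lower, a fall of 1.27-fold (log2 difference -0.35; limma adjusted p = 0.0401). A dim second ADH4 probe set went the other way, with 15.9, 12.7 and 20.4 in H2B K123R, against 7.62, 9.24 and 11.9 in wild type. Every mutant array was higher there (log2 difference 0.33), but the probe set did not pass (limma adjusted p = 0.159). Its signals were close to those of the mouse controls, which reached 18.3 on H2B K123R replicate 2. No other acetaldehyde or acetyl-CoA gene passed by limma (0 of 4, and 0 at an unadjusted p under 0.05). The smallest p of that list belonged to ACS1, the glucose-repressed acetyl-CoA synthetase, at 193 ± 33.9 in H2B K123R and 149 ± 42.8 in wild type (limma adjusted p = 0.368).

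At the entry of pyruvate into the mitochondrion, 1 of 12 genes rose. This was PKP2, a kinase that switches off pyruvate dehydrogenase by phosphorylation. Its signals were 228, 180.4 and 251 in H2B K123R, against 115, 115 and 111 in wild type. It rose 1.81-fold (limma adjusted p = 0.0244), and its dimmer probe set rose as well, with means of 45.0 in H2B K123R and 22.5 in wild type (adjusted p = 0.0378). The pyruvate dehydrogenase subunit genes PDA1, PDB1, LAT1, LPD1 and PDX1 did not pass, with differences from 0.05 to 0.52. Pyruvate carboxylase and pyruvate kinase genes gave no call by limma (0 of 4, and 0 at an unadjusted p under 0.05). PYC2, a cytosolic pyruvate carboxylase gene, came nearest at 1588 ± 61.0 in H2B K123R and 1433 ± 56.5 in wild type (adjusted p = 0.257).

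Of the 3 acetate transport genes none passed by limma, with 2 at an unadjusted p under 0.05, against 30.7% of all genes. ATO3, a putative ammonium exporter gene of the acetate permease family, gave 893, 608 and 782 in H2B K123R, against 1200.3, 1075 and 1084 in wild type. All mutant arrays were below wild type, as for 13.8% of all genes (log2 difference -0.56, limma adjusted p = 0.0697). Without H2B K123R replicate 1 ATO3 passed (-0.68, limma adjusted p = 0.0233), in a fit where 14.4% of all genes did. ATO2, another gene of that family, differed in the opposite direction at low signals, with 48.2, 44.3 and 45.1 in H2B K123R, against 34.9, 24.5 and 18.4 in wild type. All mutant arrays were above wild type, as for 25.5% of all genes (log2 difference 0.58, limma adjusted p = 0.0896). Of 11 regulators, ADR1, the activator of ADH2 and other ethanol-use genes, rose. It gave 43.3, 39.6 and 46.8 in H2B K123R, against 23.6, 24.2 and 28.1 in wild type, a 1.43-fold rise with groups apart (limma adjusted p = 0.0491). Its target ADH2 had the interval given above, and CAT8, the other activator of ADH2, read 12.0 in H2B K123R and 6.47 in wild type, levels that the brightest mouse control exceeded.

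Thiamine pyrophosphate is the cofactor of pyruvate decarboxylase, and 8 of 12 listed thiamine genes had a probe set of their own. THI7, the thiamine transporter gene, was the 1 that passed. Its signals were 585, 646 and 538 in H2B K123R, against 329.8, 388 and 287 in wild type. All mutant arrays were higher, a 1.73-fold rise (limma adjusted p = 0.0240). THI4, of thiazole synthesis, did not pass at 288 ± 37.8 in H2B K123R and 208 ± 12.9 in wild type (limma adjusted p = 0.0908). The list as a whole did not share a direction, with 4 positive and 4 negative differences and a median of 0.04. PDC2, an activator of PDC1, PDC5 and thiamine genes, had a difference of -0.05 (95% interval -0.25 to 0.15). THI3 and THI2, from the same list of regulators, did not pass and differed in opposite directions. THI3 was at -0.25 with all mutant arrays lower, as for 13.8% of all genes (limma adjusted p = 0.187). Dim THI2 was at 0.45 with all mutant arrays higher, as for 25.5% of all genes (limma adjusted p = 0.122). The 4 calls of ADH4, PKP2, ADR1 and THI7 were each lost when H2B K123R replicate 3 or any 1 of the wild-type arrays was left out (adjusted p from 0.0680 to 0.185), and kept without H2B K123R replicate 1 (0.0250 to 0.0468). Without H2B K123R replicate 2, ADH4 and ADR1 were lost as well (0.0643 and 0.0625), as was dim ADR1 with a pseudocount of 1 (0.0687) and ADH4 without a variance trend (0.0624).

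**Figure D4:**
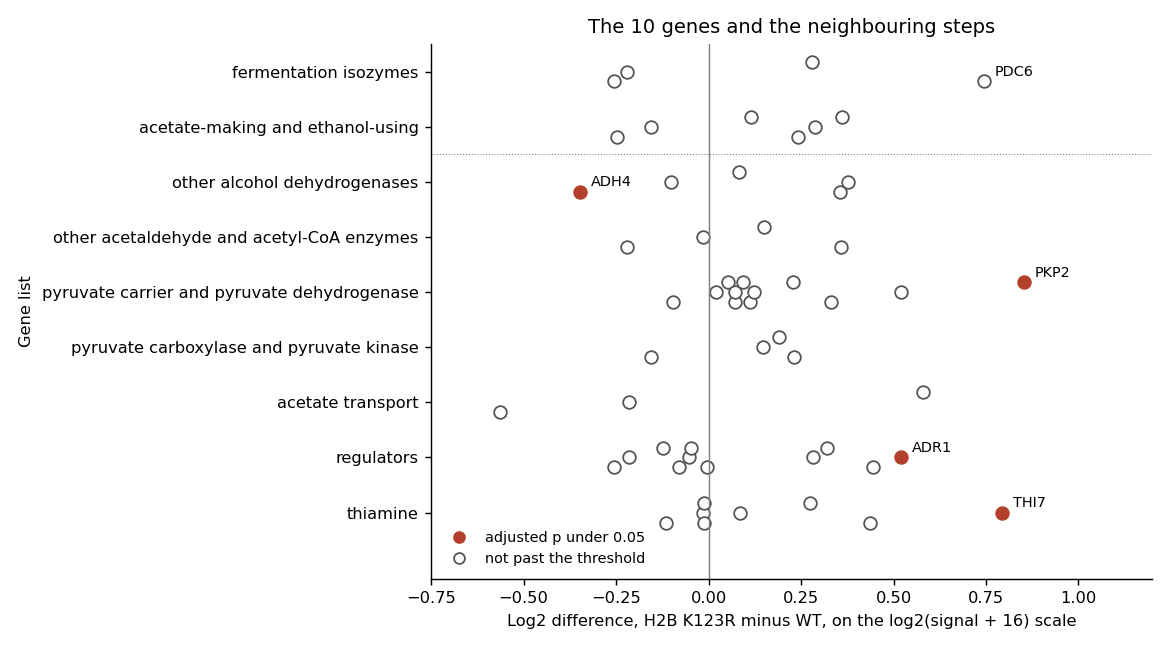
Log2 difference, H2B K123R minus wild type, of the 10 genes (above the dotted line) and of 47 genes of neighbouring steps, 1 circle per gene. Filled circles passed limma at an adjusted p under 0.05. ADH4 at -0.35 is the filled circle on the negative side, PKP2, ADR1 and THI7 are those on the positive side, and PDC6 at 0.74 is the open circle that narrowly missed the threshold.

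Genes with the array pattern most like PDC6 were found by Pearson correlation over the 6 arrays, which mixes the strain difference with the position of H2B K123R replicate 1. Among 3793 other genes above the median signal, the nearest were GRX2, a glutaredoxin gene (r = 0.994), HSP10, a mitochondrial chaperonin gene (0.989), FLO11, a cell surface flocculin gene (0.986), GEP3 (0.982) and SGS1, a DNA helicase gene (0.981). Of these GEP3 passed the test (limma adjusted p = 0.0492). In all, 183 genes had a correlation with PDC6 above 0.9, against 24 with ADH2. The strains were apart for PDC6 and overlapped for ADH2, and no such count was made for other genes, so these counts mark no trait of PDC6. The nearest to ADH2 were BAP3, an amino acid permease gene (0.979), SLD3, NDI1, MIC27 and DRE2, none of which passed, with adjusted p from 0.420 to 0.788.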

How the data were processed

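The deposited values are linear intensity values per probe set. The authors had scaled them: with 2% trimmed from both tails, every array averaged 500.4 to 500.5. How probes were summarized is not given in the sources used, and the number of arrays limits the precision. RNA was labelled and hybridised by the array maker's manual, per the labels' protocols. Of 9335 probe sets, 60 controls were set aside. Platform annotation paired 6504 of the rest with 1 gene, 328 with several and 2443 with none, and names were checked by gene identifier against the R64 gene table. No coordinates are printed, since the array's genome build is not given.

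Groups came from the mutation label and replicate numbers from the titles. Signals were used as log2(signal + 16) and tested with limma 3.58.1 under R 4.3.3 with lmFit and a trended eBayes, adjusted over 9275 probe sets. A gene with several probe sets was counted by the brightest. The procedure was tested on simulated data. An exact permutation test of 3 against 3 arrays cannot go below p = 0.10, so none was run. Alternatives were other pseudocounts, quantile normalization, cyclic loess, a filter on low signal, no variance trend, array weights, a replicate block and each array left out.

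The 10 genes, the neighbouring lists and the tests were chosen with earlier results of these data known. All 10 genes were named, with neighbouring genes that passed and the smallest p of a list without one. HTB1, HTB2, ATO2, CAT8, PDC2, THI2, THI3, THI4 and the pyruvate dehydrogenase subunits were named after their values were seen.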

Additional observations from a re-analysis of the deposited data

How the results depend on the processing

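No member passed limma in the fit on all arrays. With a pseudocount of 1 or 64, quantile normalization, cyclic loess or no variance trend 1 passed, which was PDC6, and with array weights 4 did (PDC5, PDC6, ADH3 and ALD6), in a fit that called 36.7% of all genes. With 1 array left out, 0 to 1 passed. Of 139 gene-by-alternative values for the members, 129 stayed on their side of the threshold, 10 came to pass and 0 changed sign. The fits with the signal filter, the replicate block or no variance trend keep the difference itself, so no sign could change there. PDC6 was not in the fit limited to probe sets above the median signal. Over all probe sets 620 passed, 2885 with array weights, 307 with the replicate block, and 22 to 1023 with 1 array left out. Leaving out H2B K123R replicate 1 gave 1023 and replicate 3 gave 70, and leaving out wild-type replicate 1, 2 or 3 gave 59, 42 or 22. The cause was not tested. With the replicate block, 0 members passed, and of the neighbouring calls that of THI7 remained (adjusted p = 0.0354). The labels do not say that a number marks shared cultures, so the numbers were not taken as pairs. Deviations of same-numbered arrays correlated at 0.32, 0.38 and 0.05, and each mutant array correlated best with its own number. Median differences over all probe sets lay between -0.01 and 0.05 in all fits. Signal over background limits ADR1, CAT8 and the dim second probe sets of ADH4 and ALD6.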

Other observations

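The protein-coding genes next to each member in the R64 gene order were read as a description of its surroundings. Of 20 such genes, 16 had a probe set of their own, 8 with a positive and 8 with a negative difference, and a median of 0.01. None passed by limma, and 6 had an unadjusted p under 0.05, against 30.7% of all genes. The neighbours of PDC6, which had the largest difference among the members, both had negative values. PIL1, an eisosome gene, averaged 1686 in H2B K123R and 2103 in wild type (log2 difference -0.32, limma adjusted p = 0.0648). CTT1, the cytosolic catalase gene, averaged 52.3 in H2B K123R and 54.8 in wild type (-0.05). The largest value was that of MHF1, next to ADH1, at 286 in H2B K123R and 159.9 in wild type (0.75, adjusted p = 0.0586), while ADH1 itself was at -0.26.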
